A study of Mus musculus with 18 samples.

Results

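In 3 of the 18 skin-flap libraries of this mouse series the transcript of Il1b, which encodes interleukin 1 beta, exceeded 500 FPKM (fragment counts divided by gene length and by the library's total). They are Control replicate 1, D15L200 replicate 3 and D100L150 replicate 1, each from another group, and each was set against the 2 other libraries of its own group, 6 group mates in all. The other 9 libraries belong to D15L100, D15L150 and D150L150, where no library passed that level. Skin was taken at day 7. Control flaps received no treatment after the flap was modelled, and in the other 5 groups a printed mesh spacer lay under the flap. The series states that the meshes differed in diameter and spacing, but the labels give no unit or key for the numbers after D and L. The sources used here give no strain, age or sex of the mice, and do not tell whether a group's 3 libraries are from 3 animals.

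Interleukin 1 beta is made as an inactive precursor, mostly by neutrophils, monocytes and macrophages, and is cut to its active form by caspase 1 in the inflammasome. It acts through its receptor and NF-kB on keratinocytes, fibroblasts and endothelium, which then release neutrophil-attracting chemokines and colony-stimulating factors. In a skin wound this loop brings neutrophils early, and its antagonist (Il1rn) and decoy receptor (Il1r2) dampen it.

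The high libraries were chosen by their Il1b FPKM values, so differences between the 3 high-Il1b libraries and their mates are a description, without a test. A gene was counted as higher or lower where the high library lay beyond both mates in the same direction in all 3 groups and the mean difference was at least 1 on the log2(FPKM + 1) scale, a scale that understates changes of low genes. The only test was made in the other 9 libraries: the slope of each gene on Il1b within groups, with limma.

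Il1b itself (chr2:129364569-129371164 in the GRCm38 annotation) stood at 564 FPKM in Control 1 against 72.9 and 223 in its mates. In D15L200 it stood at 678 in replicate 3 against 32.7 and 44.3, and in D100L150 at 689.7 in replicate 1 against 79.8 and 106. The value just inside the cut was that of Control 1, and just outside it lay D150L150 1 with 309.8. The split is therefore widest in D15L200, 4.12 on the log2 scale, and narrowest in Control, 2.14, where Control 3 was the highest of the mates. Among the other 9 libraries Il1b ran from 19.98 in D15L150 2 to 309.8 in D150L150 1, with a median of 90.4. Within D150L150 alone it covered nearly that whole span, with 216 in replicate 2 and 22.8 in replicate 3.

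**Figure D1:**
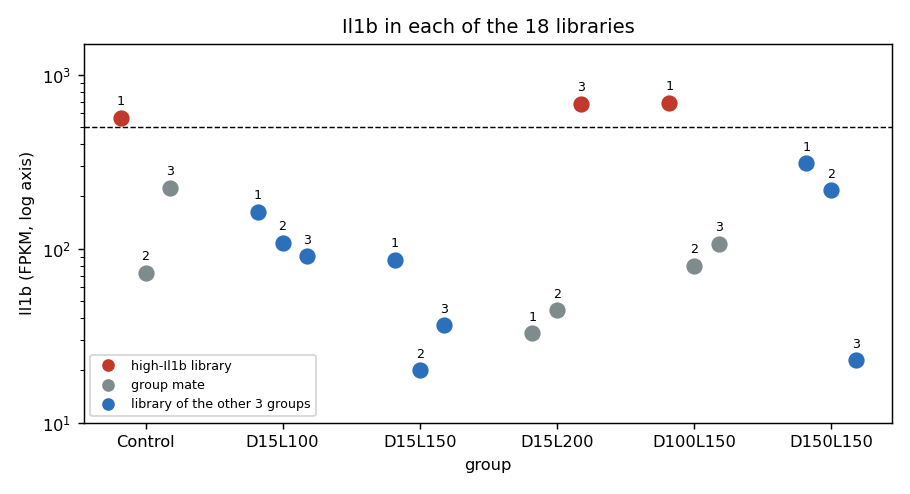
Il1b in each of the 18 libraries by group (x axis), in FPKM on a log axis, 1 point per library with its replicate number. The dashed line is the level of 500 FPKM that defined the 3 high libraries (red), and grey points are their mates. The red points sit at 564, 678 and 689.7, and the highest of the other libraries (blue) at 309.8.

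The neutrophil chemokine genes Cxcl1, Cxcl2, Cxcl3 and Ppbp lie close together on chromosome 5 and were among the genes most above the mates' levels. The 140 bases before the start of each are shown here, on the gene's strand, from RefSeq on GRCm38.p6, with the stretch GGGAATTTCC, a form of the NF-kB binding site, in capitals. They cover chr5:90891105-90891244 for Cxcl1, chr5:90903759-90903898 for Cxcl2, chr5:90785961-90786100 for Cxcl3 and chr5:90768378-90768517 for Ppbp.
Cxcl1: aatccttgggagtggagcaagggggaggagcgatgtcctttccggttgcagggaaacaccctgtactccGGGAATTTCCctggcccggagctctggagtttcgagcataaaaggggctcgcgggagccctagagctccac
Cxcl2: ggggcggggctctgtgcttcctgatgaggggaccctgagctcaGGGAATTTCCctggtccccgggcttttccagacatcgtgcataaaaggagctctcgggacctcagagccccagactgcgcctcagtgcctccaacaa
Cxcl3: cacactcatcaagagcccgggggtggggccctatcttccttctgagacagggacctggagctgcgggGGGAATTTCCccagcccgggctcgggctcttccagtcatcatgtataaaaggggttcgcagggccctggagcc
Ppbp: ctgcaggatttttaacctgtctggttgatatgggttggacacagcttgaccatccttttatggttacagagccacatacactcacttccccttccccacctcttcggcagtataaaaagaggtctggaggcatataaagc
The stretch begins 71, 97 and 73 bases before the start in Cxcl1, Cxcl2 and Cxcl3, and these letters are not in the window of Ppbp. Over windows from 250 bases before to 50 after the start, read on both strands, GGGAATTTCC was in 29 of 32851 RefSeq windows (0.0883%) and in 13 of 10424 tested genes that have a window (0.125%). It was in 4 of 234 genes higher in the split (Cxcl1, Cxcl2, Cxcl3 and Nfkbia) and in 0 of 309 lower ones. These 10 letters were picked after the chemokine windows had been searched with the wider NF-kB consensus, so their count only describes the windows and supports nothing. The wider consensus, which holds these letters too, was in 23 of 234 higher genes (9.83%), 21 of 309 lower genes (6.8%) and 671 of 10424 tested genes (6.44%).

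Of 13077 genes tested, 301 (2.3%) were higher and 406 (3.1%) lower in the high-Il1b libraries by this count. The median difference of all genes was -0.02. Beyond both mates in all 3 groups by any amount lay 1872 genes upward (14.3%) and 2043 downward (15.6%). Among the 301 higher genes the median difference was 1.27 in Control, 1.497 in D15L200 and 1.59 in D100L150, and among the 406 lower genes it was -1.60, -1.14 and -1.57. Of the 14665 genes removed for low values none enters these counts, and 7 of the 301 reached FPKM 1 in no library other than the high ones. Genes that reached it in too few other libraries, such as Ly6g, also needed the high libraries to pass the filter. They are not among these 7 but can be among the 301, as is Ly6g with a mean difference of 1.33. How many such genes there are was not determined. The counts and lists that follow, up to the slopes, use the same libraries that Il1b split, so none supports another.

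Libraries held 28422344 to 35327357 fragments. The first principal component of all genes (37.69% of the variance) placed Control 1 at -69.87 and D100L150 1 at -49.65, apart from all others, whose lowest was -23.91. D15L200 3 lay at -12.47. The basal keratinocyte marker Krt14 was at least 788 FPKM in every library. Without Control 1 the counts were 396 higher and 428 lower, and without D100L150 1 they were 334 and 456, over the 2 groups then left. In bulk skin, fewer cells of a type and less RNA per cell cannot be told apart, and this holds for each cell type below.

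Within the interleukin 1 family, Il1a, the antagonist Il1rn and the decoy receptor Il1r2 were higher in all 3 groups, and most other members were not counted. Il1a, which encodes interleukin 1 alpha, read 36.1 FPKM in Control 1 against 3.47 and 10.3, 31.9 against 4.86 and 5.37 in D15L200 and 50.4 against 7.97 and 7.07 in D100L150. That is 5.25, 6.24 and 6.698 times the mean of the mates, and no high library overlapped any mate. The antagonist gene Il1rn was 163, 133 and 161 FPKM in the 3 high libraries, while the 6 mates ran from 27.2 to 59.2. For Il1r2, the decoy receptor, the high libraries read 43.1, 69.1 and 72.4 and the mates 12.9 to 25.4. Nlrp3, the sensor of the inflammasome, stood at 38.5, 32.7 and 49.2 against at most 10.3 in any mate. Of the 27 tested members of the interleukin 1 and 36 list (Il1b left out), 7 were higher and 0 lower, with a median difference of 0.17.

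Neutrophil-attracting chemokines showed some of the greatest differences. Cxcl2 stood at 1217 FPKM in Control 1 against 117 and 425, at 1515 in D15L200 3 against 31.2 and 31.7, and at 1628 in D100L150 1 against 137 and 141. The 3 high libraries were thus within a narrow range of each other, while their mates differed by group. Cxcl3 reached 383, 233 and 1669 FPKM, with mates from 7.59 to 102. Ppbp, a platelet and myeloid chemokine of the same family, was 66.96, 68.3 and 1423 in the high libraries, but D100L150 3, a mate, had 235, more than 2 of the high libraries. Its position held within each group only. Cxcl1, named here after its values were seen, had 39.8, 70.4 and 218 FPKM, the first against 21.98 in Control 3.

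Ccl3 and Ccl4, macrophage inflammatory proteins that attract monocytes and other leukocytes, were at 348, 547 and 768 FPKM and at 408, 513 and 505 FPKM. Their mates reached at most 172 and 159.7, both in Control 3. Of the 38 chemokines and chemokine receptors tested, 11 were higher and 5 lower, and the median difference was -0.05. The 5 lower ones, Cxcl9, Cxcl13, Ccl8, Ccl11 and Ccl27a, include attractants of lymphocytes and eosinophils, and these were picked for naming after their direction was seen.

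Among cytokines and colony-stimulating factors, Csf3 (chr11:98700183-98703631), which encodes the granulocyte colony-stimulating factor, had the greatest mean difference of all genes counted as higher, 4.09 ± 0.35 (SE). This SE is that of the limma fit over the 3 high libraries and their 6 mates. Csf3 stood at 89.01 FPKM in Control 1 against 2.07 and 4.95, at 32.9 against 0.321 and 0.424 in D15L200 and at 30.4 against 1.27 and 3.84 in D100L150. All 3 high libraries lay far from all 6 mates. Osm, oncostatin M, was 44.3, 50.8 and 92.3 FPKM with mates of 2.22 to 15.6. Tnf, tumour necrosis factor, read 40.00, 50.95 and 40.7 against 1.66 to 14.6, and Il6 read 18.6, 12.02 and 56.2 against 0.6202 to 6.71. In this list 10 of 19 tested genes were higher and 0 lower, with a median difference of 1.28.

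Genes of the NF-kB response and prostaglandin synthesis were higher in part: 13 of 36 were higher, 0 lower, and the median was 0.75. Ptgs2, the inducible cyclooxygenase, was at 93.8 FPKM against 6.301 and 17.5 in Control, 68.8 against 3.34 and 4.71 in D15L200 and 165 against 6.75 and 14.4 in D100L150. Its differences of 3.03, 3.81 and 3.93 were close to each other across groups. Acod1, the enzyme that makes itaconate in activated myeloid cells, stood at 112, 129 and 126 FPKM, and its mates at 4.58 to 48.6. Cd14, a co-receptor for bacterial lipopolysaccharide, was 345, 337 and 532 against 32.6 to 121. The NF-kB subunit genes Nfkb1, Nfkb2, Rel, Rela and Relb were not among those counted.

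Neutrophil markers followed the same libraries. S100a9, a subunit of calprotectin, was at 3768 FPKM in Control 1 against 477 and 1682, at 5206 in D15L200 3 against 663 and 501, and at 5705 in D100L150 1 against 1053 and 1643. S100a8, its partner, read 2109, 2890.1 and 3646 against mates of 496 to 1327. The high libraries were above all mates in both. Cxcr2, the receptor for the chemokines above, had 16.2, 35.8 and 59.9 FPKM, and the 20.9 of the mate D100L150 3 exceeded the level of Control 1. Csf3r, the receptor for the product of Csf3, was 35.3 in Control 1 against 33.03 in Control 3, a narrow margin, and 56.3 and 78.05 in the other high libraries. Ly6g, the surface antigen by which mouse neutrophils are usually sorted, was low throughout, at 1.02, 2.87 and 3.53 FPKM in the high libraries and 0.0322 to 1.11 in the mates.

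Of 24 neutrophil markers tested, 18 were higher and 0 lower, and the median difference was 1.76. The mean log2 level of the list was 5.79, 6.26 and 6.89 in Control 1, D15L200 3 and D100L150 1, and 3.55 to 5.15 in the mates, without overlap. Retnlg, a resistin-like protein of granulocytes, read 60.7, 108 and 79.8 FPKM with mates at most at 19.2. Trem1, an activating receptor of neutrophils and monocytes, read 27.7, 30.8 and 52.6, with mates at most at 8.73. Stfa2l1, a stefin of the granulocyte cluster on chromosome 16, stood at 277, 334 and 431 against 5.13 to 94.9. Stfa2l1, Cstdc4 (3.81) and Csta2 (2.91) belong to a family of close copies between which the counting could have split fragments, so their separate differences are uncertain.

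**Figure D2:**
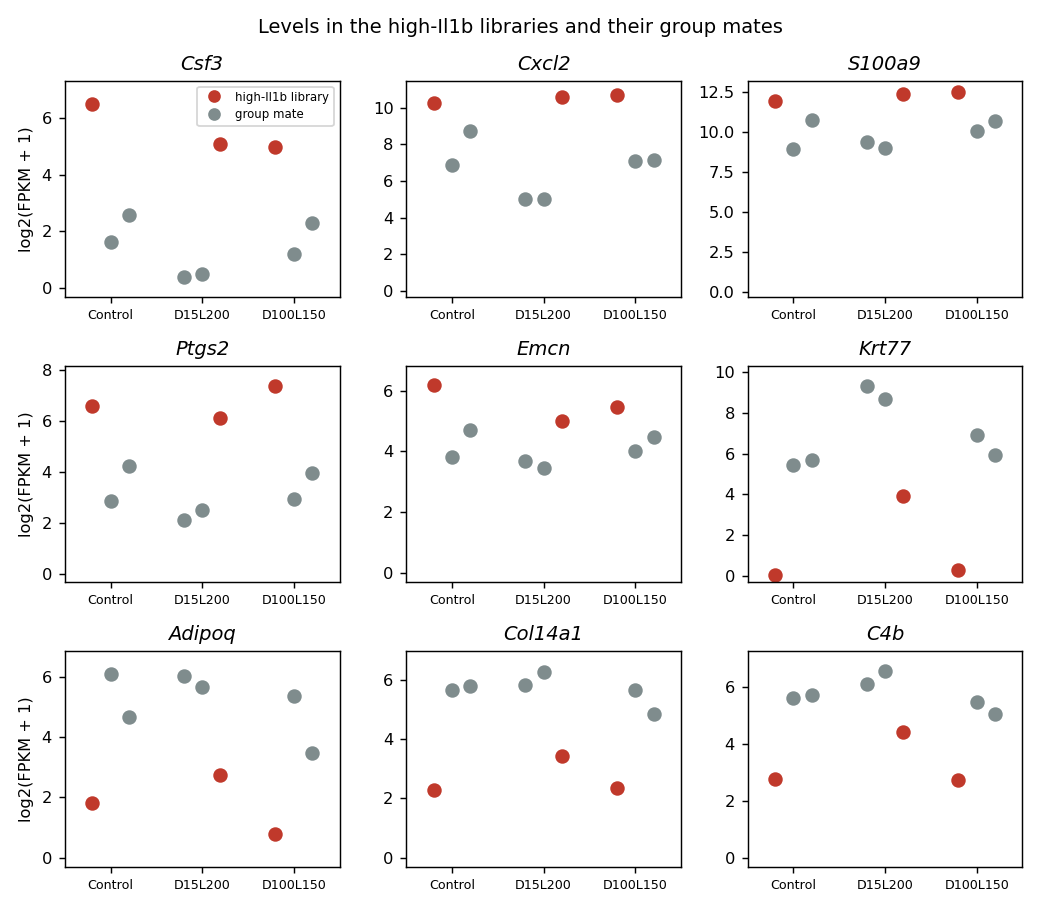
Levels of 9 genes on the log2(FPKM + 1) scale (y axis) in the 3 groups of the split (x axis), 1 point per library, with the high-Il1b library in red and its mates in grey. In Csf3, Cxcl2, S100a9, Ptgs2 and Emcn each red point lies above the mates of its group, and in Krt77, Adipoq, Col14a1 and C4b below them.

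Macrophage genes did not move as one class. Cd68, a lysosomal marker of macrophages, was 153, 227 and 225 FPKM in the high libraries and 164 to 271 in the mates. Adgre1, which encodes F4/80, was lower in all 3 groups, 17.5 against 42.6 and 50.7, 35.9 against 62.3 and 87.7, and 31.1 against 91.9 and 54.4. Csf1r, the receptor of macrophage colony-stimulating factor, differed by -0.62 and Lyz2 by -0.51 on the log2 scale, both under the size that was counted. Single genes of the macrophage list were higher. Arg1, arginase 1, stood at 238, 306 and 1754 FPKM with mates at most at 219, and Spp1, osteopontin, at 2122, 1361 and 1273 with mates at most at 708. Thbs1, thrombospondin 1, read 382, 212 and 1064 against 37.6 to 185. In this list of 25 genes, 7 were higher, 2 lower and 16 neither, with a median of 0.01.

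Markers of resident macrophages were lower or uncounted: 8 of 15 were lower, 0 higher, and the median was -1.20. Cd163, a haemoglobin scavenger receptor, read 1.56, 4.76 and 7.96 FPKM against mates of 5.75 to 19.2. Gas6, a ligand of receptors that clear dead cells, read 38.2, 65.5 and 12.3 against 72.3 to 125. Of the complement and acute phase list 11 of 23 were lower and 0 higher, with a median of -1.12, and 3 of these 11 (C1qa, C1qb and C1qc) are also in the resident macrophage list. C4b stood at 5.88 against 48.3 and 51.6 in Control, 20.4 against 67.7 and 94.1 in D15L200 and 5.701 against 43.7 and 32.4 in D100L150. C3, the central component, read 12.5, 30.1 and 36.7 with mates from 63.9 to 156.

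Some genes of other immune cell types were lower in the high libraries, and most dendritic and lymphocyte genes were not counted. Among MHC class II, dendritic and Langerhans cell genes 5 of 15 were lower and 0 higher, with Cd74, the invariant chain, at 224, 413 and 149.6 FPKM against 288 to 749. Among lymphocyte genes 4 of 13 were lower and 0 higher, with the T cell marker Cd3e uncounted at -0.49. Gzma, a granzyme of cytotoxic cells, read 0.974, 10.5 and 1.59 against 6.25 to 24.6, and its difference in D15L200 was small, -0.59 against -2.96 in Control. Mast cell and eosinophil genes were lower for 5 of 10 and higher for 1, and the mean level of that list was 0.09 above the mates in D15L200. The mast cell protease Mcpt4 stood at 3.44 against 8.92 and 14.7 in Control, 44.2 against 59.2 and 45.9 in D15L200 and 0.914 against 39.3 and 12.9 in D100L150. Hdc, histidine decarboxylase, is listed with both mast cells and neutrophils and was higher, at 136, 156 and 128 FPKM against 5.999 to 41.7. Interferon-stimulated genes were uncounted in either direction, 0 of 26, with Isg15 at -0.04 in Control, 1.74 in D15L200 and 0.18 in D100L150.

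Matrix proteases and hypoxia-response genes were higher in part. Mmp8, the neutrophil collagenase, was 16.8, 18.4 and 124 FPKM against 1.74 to 15.8. Mmp10 read 6.105, 17.6 and 48.4 and Mmp13 read 64.00, 91.8 and 194, with mates at most at 6.41 and 66.1. In the list of metalloproteinases and plasminogen activation 8 of 24 were higher and 1 lower (Mmp2). Slc2a3, a glucose transporter abundant in neutrophils, stood at 24.7, 41.3 and 22.5 against 1.06 to 8.12. Egln3, an oxygen-sensing hydroxylase induced in hypoxia, read 45.7, 189 and 204 FPKM, and Control 1 did not exceed the 52.9 of D100L150 2. Vegfa, the vascular growth factor, was 25.8 against 21.4 and 23.9 in Control, a difference of 0.18, but 64.8 against 15.3 and 17.3 in D15L200 and 85.1 against 17.5 and 17.6 in D100L150. Of the 25 glycolysis and hypoxia genes 7 were higher and 0 lower.

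Part of the endothelial genes and the red cell genes were also higher. Of 20 endothelial genes 7 were higher and 0 lower, with a median of 0.95. Of 14 genes of pericytes and vascular smooth muscle 0 were counted in either direction, with a median of -0.04. Emcn, endomucin, read 70.8 against 13.1 and 25.1 in Control, 30.6 against 11.7 and 9.897 in D15L200 and 42.7 against 14.99 and 21.05 in D100L150. Cdh5, the adhesion molecule of endothelial junctions, differed by 1.05. It was 2.73 and 2.44 times the mates' mean in Control and D15L200, but 1.30 times in D100L150. Pecam1 was 151, 71.1 and 101 with mates of 30.5 to 79.1. The mean level of the endothelial list differed by 1.23 in Control, 0.91 in D15L200 and only 0.27 in D100L150. All 6 globin and erythroid genes tested were higher. The globin genes' share of a library's summed FPKM values was 0.137%, 0.197% and 0.773% in Control 1, D15L200 3 and D100L150 1. In the mates it was 0.025% to 0.193%. Hba-a1 read 194, 268 and 913 FPKM against 36.7 to 212 in the mates, although its near-identical copy makes the gene's own value uncertain. Control 1 thus did not exceed the highest mate. Alas2, the erythroid enzyme of haem synthesis, read 3.64, 6.75 and 30.8 against 0.471 to 6.72. The part of this blood signal in the neutrophil, endothelial and other differences was not tested.

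Immediate early genes were higher for 8 of 14, with a median of 1.13. Junb, an AP-1 subunit, read 298, 420.3 and 452 FPKM against 97.8 to 163, and Ier3 read 381, 468 and 803 against 37.7 to 137. Heat shock and endoplasmic reticulum stress genes were higher for 2 of 13. In the lists of cell cycle genes, cell death genes and nuclear oxidative phosphorylation genes 0 were counted in either direction. With 2.3% and 3.1% of all genes counted, lists this short can hold none. A positive difference of any size was found in 16 of 20 cell cycle, 11 of 14 cell death and 0 of 18 oxidative phosphorylation genes. Over all genes that share was 47.3%. The median differences were 0.11, 0.39 and -0.35.

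**Figure D3:**
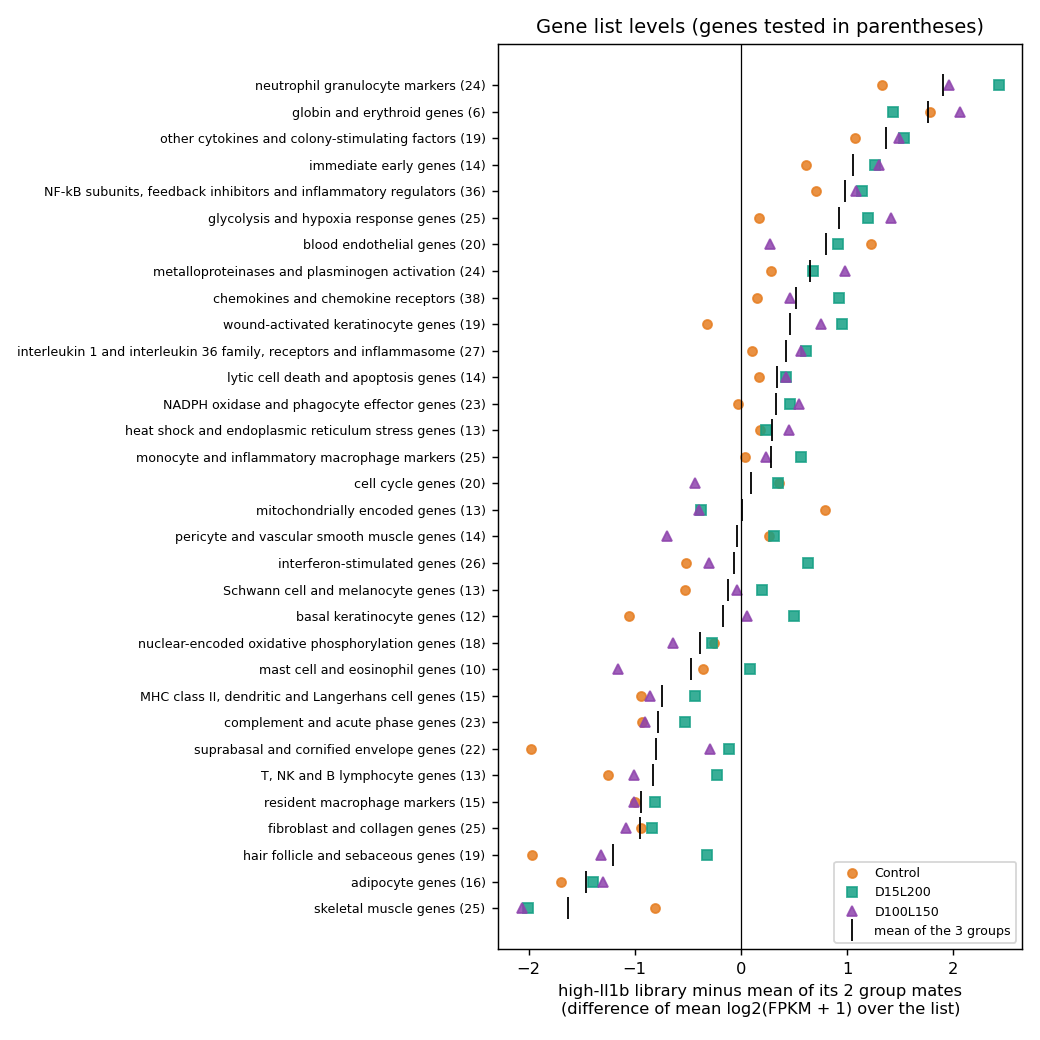
Difference between the high-Il1b library and the mean of its 2 mates in the mean log2(FPKM + 1) over each of 32 gene lists (x axis), for Control, D15L200 and D100L150, with the mean of the 3 groups as a bar. Neutrophil markers lie at 1.33, 2.43 and 1.96 and skeletal muscle genes at -0.81, -2.003 and -2.06, while suprabasal genes lie at -1.98 in Control and at -0.11 and -0.29 in the others.

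Lists of suprabasal epidermis, sebaceous gland, muscle, fat and fibroblasts held some lower genes and no higher ones. Of 22 suprabasal and cornified envelope genes 3 were lower and 19 were not counted, and the list's mean level differed by -1.98 in Control but by -0.11 in D15L200 and -0.29 in D100L150. Krt77 (chr15:101858731-101869706), a keratin of suprabasal and sweat duct cells that is in none of the lists, had the greatest mean difference of all genes counted, -5.59 ± 0.28. It stood at 0.0217 FPKM in Control 1 against 42.1 and 50.2, 14.2 in D15L200 3 against 643 and 411, and 0.213 in D100L150 1 against 121 and 60.6. A low level was not particular to the high libraries, since D15L100 3 had 1.69 with Il1b at 90.4. Krt10, the chief suprabasal keratin, was 4.003 against 49.6 and 56.4 in Control and 11.2 against 215 and 70.2 in D100L150, but 345 against 678 and 504 in D15L200. Basal keratinocyte markers were not counted: Krt5 differed by -1.53, 0.11 and -0.28 in Control, D15L200 and D100L150, and Krt14 by -1.11, 0.52 and 0.32. Wound-activated keratinocyte genes were higher for 3 of 19. That list's mean level differed by -0.32 in Control, but by 0.95 in D15L200 and 0.75 in D100L150. Sprr2f, a member, read 5.695, 30.2 and 48.96 FPKM against 0.884 to 13.8. The Sprr2 genes are close copies of each other, so this value is uncertain too.

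Sebaceous gland genes show how the groups differ. Elovl3, a fatty acid elongase of sebocytes, read 0.0483 FPKM in Control 1 against 52.3 and 38.4 and was listed at 0 in D100L150 1 against 54.2 and 12.8, but stood at 46.3 in D15L200 3 against 77.9 and 52.99. Far2, a fatty acyl reductase, read 0.0118, 31.1 and 0.0406 in the high libraries and 7.39 to 64.5 in the mates. In Control 1 and D100L150 1, then, both genes were listed at or near 0, and in D15L200 3 they lay below the mates by less than 1 log2 unit. Of 19 hair follicle and sebaceous genes tested 7 were lower and 0 higher.

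In the muscle list 10 of 25 genes were lower and 0 higher. Myh7, the slow myosin heavy chain, read 1.13 FPKM in Control 1 against 92.04 and 75.9, 0.0524 against 24.4 and 6.604 in D15L200, and 0.0282 against 0.249 and 95.7 in D100L150. Its mates in D100L150 thus differed from each other far more than the high library did from the lower of them. Ckm, muscle creatine kinase, was 717, 178 and 123 with mates of 177 to 2028. With the level of the muscle list as a covariate its mean difference turned from -1.78 to 0.63. Ckm is itself a muscle gene, so this covariate takes out its own variation and the change tells nothing further. Acta1 and Mylpf, other defining muscle genes, were not counted. The muscle list's share of a library's summed FPKM values was 1.94%, 0.706% and 0.543% in the high libraries and 0.763% to 4.80% in the mates. Its part in the other lower genes was not tested beyond the muscle covariate, under which 350 genes were higher and 690 lower.

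Some fat and fibroblast genes were lower in all 3 groups. Adipoq, adiponectin, stood at 2.503 FPKM against 66.4 and 24.1 in Control, 5.71 against 63.9 and 49.99 in D15L200 and 0.734 against 39.6 and 10.1 in D100L150. Plin1, a lipid droplet protein, read 2.45, 2.23 and 1.98 against 3.27 to 18.8. Of 16 adipocyte genes 9 were lower and 0 higher, with a median of -1.40. Col14a1, a collagen of the dermis, read 3.85 against 49.3 and 53.7, 9.81 against 55.9 and 75.2, and 4.11 against 49.7 and 27.8. Col1a1, the chief fibrillar collagen, was 919.7, 1444 and 843 FPKM with mates from 1431 to 2984, lower within each group though not across groups, while Dcn (-0.395) and Pdgfra (-0.29) were not counted. In the fibroblast and collagen list 12 of 25 were lower and 0 higher, with a median of -0.86.

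Among the mates, too, the genes counted as higher tended to go with Il1b. Of the 301 higher genes 282 (93.69%) were above in the mate with more Il1b in Control, 222 (73.75%) in D15L200 and 206 (68.44%) in D100L150. Over all genes these shares were 56.46%, 53.67% and 40.76%. For the 406 lower genes they were 28.57%, 36.21% and 32.51%. The mates belong to the libraries that the split used, so these shares are a description.

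In the 9 libraries that the split left aside, limma called 22 genes (0.168%) with a positive slope on Il1b and 0 (0%) with a negative one, at a Benjamini-Hochberg adjusted p under 0.05. At an unadjusted p under 0.05 there were 831 positive (6.35%) and 481 negative (3.68%) slopes, and the smallest adjusted p of a negative slope in limma was 0.114. The p-values measure the spread between these libraries only. Of the 22 genes 21 were also higher in the split, the exception being Pira1, with a difference of 0.15 there. The number of calls changed with the libraries used. Without D150L150 3, the library of lowest Il1b in its group, 0 genes were called, and without D150L150 1 only 1 was. Without D150L150 2, D15L150 1 or D15L100 2 there were 11, 8 and 13, and without the filter on low values there were 7.

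Stfa2l1 had the smallest p, with 48.1, 21.03 and 23.2 FPKM in D15L100, 24.5, 2.39 and 4.35 in D15L150 and 93.3, 65.2 and 2.701 in D150L150. The lowest 3 libraries were D15L150 2, D150L150 3 and D15L150 3, which were also lowest in Il1b. The limma slope was 1.31 ± 0.07 (SE) log2 units per log2 unit of Il1b, with an adjusted p of 0.0021. It was 1.24 to 1.46 over the 19 settings tried, and the adjusted p was under 0.05 in 16 of them. Without D150L150 3 it was 1.41 with an adjusted p of 0.318 in limma.

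Cxcl2 stood at 275, 81.1 and 85.9 FPKM in D15L100, 63.03, 12.2 and 17.4 in D15L150 and 485, 330.2 and 14.3 in D150L150. In limma its slope was 1.34 ± 0.0997 with an adjusted p of 0.00801, and 1.27 with an adjusted p of 1 without D150L150 3. Srgn, serglycin of granule-bearing cells, and Clec4d, a myeloid lectin, had smaller slopes of 0.63 ± 0.05 and 0.71 ± 0.06, each with an adjusted p of 0.00801 in limma. Clec4d ran from 23.7 to 169 FPKM over the 9 libraries and Srgn from 27.99 to 157. Hdc (0.95 ± 0.08), Trem1 (0.82 ± 0.07) and Acod1 (1.12 ± 0.098) followed, each with an adjusted p of 0.00985 in limma. Stfa2l1, Cxcl2, Clec4d, Srgn and Hdc were by this measure the 5 genes of the split most like Il1b over the 9 libraries. Mcemp1, Ccl4 and Nlrp3, with slopes of 0.66, 0.997 and 0.69, shared an adjusted p of 0.0194 in limma. Others called were Ccl3, Osm, Plaur, Cd14 and Nfkbid, the last named after its call was seen.

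Some genes that stood far apart in the split missed the threshold in these libraries. Csf3 had a slope of 0.79 ± 0.15 with an adjusted p of 0.165 in limma, at 0.0989 to 10.7 FPKM. Cxcl3 had a slope of 1.22 ± 0.18 with an adjusted p of 0.0857, and Ptgs2 one of 0.84 ± 0.13 with 0.102, both in limma. The defining neutrophil markers had positive slopes, S100a8 0.43 ± 0.08, S100a9 0.57 ± 0.098 and Cxcr2 0.56 ± 0.103, and none was called. Il1a and Il1rn had slopes of 0.39 ± 0.13 and 0.45 ± 0.09, uncalled as well.

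**Figure D4:**
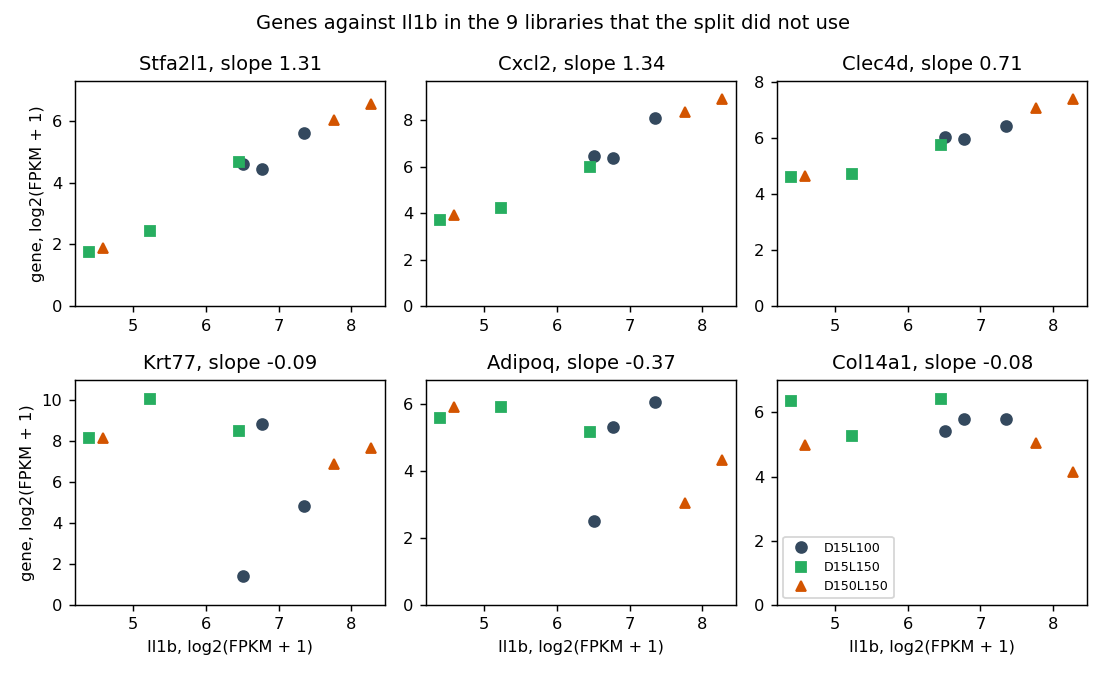
Level of 6 genes (y axis) against Il1b (x axis), both as log2(FPKM + 1), in the 9 libraries of D15L100, D15L150 and D150L150, 1 point per library. Stfa2l1, Cxcl2 and Clec4d climb with Il1b with limma slopes of 1.31, 1.34 and 0.71, while Krt77, Adipoq and Col14a1 are scattered, with slopes of -0.09, -0.37 and -0.08.

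The genes lower in the split showed no such relation that passed the test. Krt77 had a slope of -0.09 ± 0.63, Adipoq -0.37 ± 0.36, Col14a1 -0.08 ± 0.14 and Myh7 -0.25 ± 0.798, each with an SE so wide that the slope's sign is not resolved. Of the 406 lower genes 344 (84.7%) had a negative slope, beside 51.2% of all genes, and 45 (11.1%) did so at an unadjusted p under 0.05. Of the 301 higher genes 293 (97.3%) had a positive slope, beside 48.8% of all genes, and 205 (68.1%) did so at an unadjusted p under 0.05. Genes vary together, so these shares carry no test. Without D150L150 3 the shares with a slope of the same sign were 79.4% for the higher and 52.2% for the lower genes.

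By list, 4 of 24 neutrophil genes, 4 of 38 chemokine genes, 4 of 36 NF-kB response genes and 1 of 19 cytokine genes were called in the slope fit, all upward, and the median slopes were 0.53, 0.19, 0.18 and 0.24 beside -0.002 for all genes. Median slopes of the fibroblast and muscle lists, 0.08 and -0.05, were near 0, although their median differences in the split were -0.86 and -1.53. Fibroblast genes had a positive slope for 17 of 25. Other lists with lower genes in the split sloped downward, with 0 genes called. Slopes were negative for 16 of 16 adipocyte genes (median -0.23) and 19 of 19 hair follicle and sebaceous genes (median -0.24). Of the 22 suprabasal genes 19 had a negative slope (median -0.11). Interferon-stimulated genes, uncounted in the split, had a positive slope in 26 of 26, with a median of 0.27 and 0 called. Rsad2, viperin, for instance, had a slope of 0.56 ± 0.14 with an adjusted p of 0.337 in limma.

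**Figure D5:**
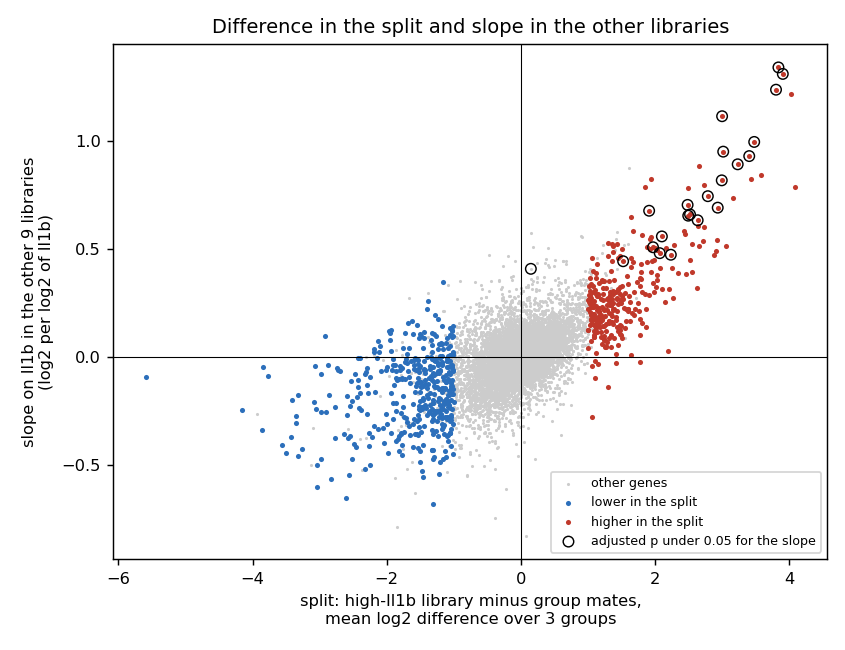
Each of 13077 genes by its mean log2 difference between the high-Il1b libraries and their mates (x axis) and its limma slope on Il1b in the other 9 libraries (y axis), with the 301 higher genes in red and the 406 lower in blue. The 22 circled genes have an adjusted p under 0.05 for the slope, and 21 of them are red.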

How the data were processed

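The authors deposited FPKM values of 27743 genes in 18 libraries of mouse skin, made from TRIzol RNA with the VAHTS Universal V6 kit, per the labels' protocols. The mm10 build and the tools HISAT2, HTSeq, fastp, DESeq2 and R 3.2.0 are listed in the submitters' processing notes, without their roles. Neither the annotation nor the strand setting is stated in the sources used here. As FPKM scales by the library total, a very abundant transcript can move the values of the rest. Whole fragments were recovered for 27743 genes from the steps in their FPKM values, within 0.02 fragments, which gave the depths.

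Values were taken as log2(FPKM + 1). Genes reaching FPKM 1 in 3 or more of the 18 libraries were kept (13078, including Il1b). The split and its SE came from a limma fit (3.58.1, R 4.3.3) with group as a block. The slope was tested in limma with 1 mean per group, a mean-variance trend, robust moderation and Benjamini-Hochberg adjustment over 13077 genes. Scripts were tested on simulated data. Members, lists, tests and the naming rule were chosen with earlier results of these data known. The rule names up to 20 genes in each direction of the split, up to 10 by slope p, 4 by difference and 2 by slope p in each of 32 lists, and defining markers. Predicted genes are not named, and not all eligible genes are printed.

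Alternatives were a pseudocount of 0.1, no filter, quantile and TPM scaling, the replicate number as a block, the muscle list's level as a covariate, other sizes for the split, other sets of libraries and leaving out each library. A voom fit on recovered fragments and a fit without D150L150 were added after seeing the data. The NF-kB motif was also chosen after seeing the data.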

Additional observations from a re-analysis of the deposited data

Results flagged for a closer look

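In 20 of the genes that the naming rule allows, the high-Il1b library lay beyond both mates in opposite directions in different groups, and 8 of these are printed. With 1 high library a group, these differences between groups were not tested, and groups of 3 libraries are too small for a check of single outlying samples. All values are the high library minus the mean of its 2 mates on the log2(FPKM + 1) scale.

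Krt14, a basal keratin, was lower in Control (-1.11) and higher in D15L200 (0.52) and D100L150 (0.32). The mitochondrial gene ATP6 was higher in Control (1.26) and lower in D15L200 (-0.13) and D100L150 (-0.37). ND4L, also mitochondrial, was higher in Control (0.51) and lower in D15L200 (-0.89) and D100L150 (-1.01). Mitochondrial genes held 12.5% of the summed FPKM values in Control 1 and 10.7% and 7.40% in its mates. Birc5, a mitosis gene, was higher in Control (0.59) and D15L200 (0.71) and lower in D100L150 (-0.78). Tgm3, an epidermal transglutaminase, was lower in Control (-0.24) and higher in D15L200 (0.45) and D100L150 (1.29). Rgs5, a pericyte gene, was higher in D15L200 (0.46) and lower in D100L150 (-2.16). Saa3, an acute phase protein, was higher in D15L200 (1.56) and lower in D100L150 (-0.32). Pdgfra, a fibroblast receptor, was higher in D15L200 (0.11) and lower in D100L150 (-0.69).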

How the results depend on the processing

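The split has 1 high library in each of 3 groups, chosen on Il1b, so its counts describe these libraries only. The slope test has 9 libraries and 5 residual degrees of freedom, and most of the range of Il1b within groups comes from D150L150.

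With a pseudocount of 0.1, 401 genes were higher and 658 lower in the split. With the muscle level as a covariate 690 were lower. The difference of Ckm, itself a muscle gene whose variation this covariate takes out, was then 0.634 in place of -1.78. For a mean difference of at least 0.5 there were 800 higher and 976 lower genes, and for at least 2 there were 56 and 80. TPM scaling gave 305 and 597. Leaving out each library in turn gave 277 to 396 higher and 379 to 542 lower genes. Higher genes made up 42.57% of those counted, 33.81% under TPM scaling and 33.65% with the muscle covariate.

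The slope fit called 22 genes upward and 0 downward. Without the low-value filter it called 7, all 7 higher in the split. With the muscle covariate it called 34 upward and 2 downward. With the 15 libraries at or under 500 FPKM of Il1b, which include the 6 mates that the split used, it called 81 upward, 68 of them higher in the split, and 6 downward. With all 18 libraries, which include the split itself, it called 1203 upward and 675 downward, of which 286 were higher and 161 lower in the split, and the shares of the same sign were then 100% and 100%. Voom called 20 upward and 1 downward. Without D150L150 the limma fit on log2(FPKM + 1) called 0 upward (69 at an unadjusted p under 0.05), 0 of them higher in the split. The same-sign shares were then 82.39% for higher and 52.71% for lower genes. Leaving out each library gave 0 to 28 genes upward and 0 to 3 downward, 0 to 25 of the higher and 0 to 1 of the lower genes called, and same-sign shares of 79.4% to 97.34% and 52.22% to 87.19%. With the muscle covariate the share of lower genes was 74.63%. The cause of these shifts was not tested.

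The labels do not tell whether replicate numbers pair the libraries. Same-numbered libraries deviated together (a correlation over 0.1) in 4 of 9 pairs in the split and 2 of 9 in the slope fit. The correlations ran from -0.657 to 0.53 in the split and from -0.483 to 0.348 in the slope fit. Whether libraries of the same number share a batch was not tested. With the replicate block the split had 324 higher and 360 lower genes, the slope fit called 0 genes (665 upward and 405 downward at an unadjusted p under 0.05), 0 of them higher in the split, and 88.18% of the lower genes had a slope of the same sign.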

Other observations

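Several other genes also lay far from their mates' level. Hcar2, a receptor for hydroxybutyrate and niacin on neutrophils and fat cells, stood at 203, 226 and 253 FPKM in Control 1, D15L200 3 and D100L150 1 and at 16.9 to 73.6 in the mates. Mirt2, a long non-coding RNA, read 22.2, 29.5 and 52.2 FPKM against 0.787 to 9.88, and its slope on Il1b in the other 9 libraries was 0.75 ± 0.08 with an adjusted p of 0.0194 in limma.

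Retnla, a resistin-like protein of alternatively activated macrophages and fat, was lower, at 1.18 FPKM against 82.6 and 12.1 in Control, 0.535 against 23.5 and 75.8 in D15L200 and 0.9800 against 8.26 and 14.02 in D100L150. Clec3b, tetranectin, read 5.22, 68.7 and 17.6 against 139 to 316. Its difference was widest in Control, -5.12, beside -2.13 in D15L200 and -2.97 in D100L150. In the 9 other libraries the slopes of Retnla and Clec3b were -0.09 ± 0.304 and -0.198 ± 0.21, neither called in limma.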
